A study of Mus musculus with 20 samples.

Results

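In all, 10 genes of fibrous disc and tendon were followed across the nucleus pulposus (NP), the gel-like core of the intervertebral disc, and the annulus fibrosus (AF), the layered fibrous ring around it. They are the transcription factors Scx and Mkx, the tendon membrane protein gene Tnmd, the thrombospondins Thbs1, Thbs2, Thbs3 and Thbs4, the tenascins Tnc and Tnxb, and the periostin gene Postn. They were chosen by symbol as genes of fibrous annulus and tendon identity. Each symbol was found on 1 row of the deposited table, so that 10 of its 51789 genes are described. All 10 passed the filter on low values, which asked for 1 FPKM in 5 or more of the 20 libraries and left 16383 genes.

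The 20 libraries came from discs of BL6 mice aged 24 months, and form 4 groups of 5. From 18 months of age, and for 6 months, the mice had weekly intraperitoneal injections of either DMSO (the vehicle) or MDL-800 dissolved in DMSO, so that every mouse received DMSO. MDL-800 is a small molecule described as an activator of SIRT6, a NAD-dependent deacylase that acts on chromatin, and no genetic alteration is named in the labels. The labels call the samples primary cells of NP or AF, while the extraction protocol names tissue dissected under a microscope. They do not say whether each library came from a different mouse or from pooled discs, so the p-values measure the spread between libraries only. Libraries are named by the number in their label. Values are given in the order 1, 2, 3, 5 and 6 for NP vehicle, 15, 18, 19, 20 and 22 for NP MDL-800, 8, 9, 10, 12 and 13 for AF vehicle, and 25, 27, 28, 29 and 30 for AF MDL-800. A level is a scaled FPKM, that is, the authors' FPKM (a fragment count corrected for transcript length and library total) divided by a factor for the library. A difference is one of log2(scaled FPKM + 1), tested with limma, and is called at a Benjamini-Hochberg adjusted p under 0.05 over 16383 genes.

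Estimated depth was between 12.9 and 22.0 M reads (M, megareads) in a library. The summed level of 11 NP markers was between 26459 and 33904 in NP libraries and between 2578 and 7838 in 9 of 10 AF libraries. AF vehicle 9 stood apart at 15557. The markers Krt8, Krt18, Krt19 and T averaged 825.1, 177.6, 1122.7 and 1403.7 in NP vehicle, so most of the sum came from other markers of the list. Of 10 tested NP markers, 9 were called higher and 1 lower in NP of vehicle-treated mice. Of 5 AF markers, 4 were lower in NP of vehicle-treated mice, and Fmod did not pass the test. Markers of muscle, bone, red blood cells, platelets, macrophages, endothelium, loose connective tissue, nerve sheath and fat were lower in NP, each tested gene of these 9 lists being called lower in vehicle-treated mice. Of 3 tested markers of cartilage and growth plate 2 were lower in NP, and of 5 markers of pericytes and smooth muscle 2 were higher and 2 lower. The summed NP level of the 9 lists was between 2.99% (fat) and 18.1% (macrophages) of that in AF. In such bulk libraries, fewer cells of a type and less RNA per cell cannot be told apart.

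The 10 genes lie on 8 chromosomes of the mouse build mm10 (GRCm38, GENCODE M21), and all are annotated as protein-coding. Scx (ENSMUSG00000034161) is at chromosome 15, 76457452 to 76459458, plus strand, and lies within Bop1 on the other strand without sharing exon bases. Mkx (ENSMUSG00000061013) is at chromosome 18, 6934518 to 7004780, minus strand. It shares exon bases with AC148004.2 on the same strand, whose part in the Mkx values was not tested. Tnmd (ENSMUSG00000031250) is at chromosome X, 133850980 to 133865577, plus strand. Thbs1 (ENSMUSG00000040152) is at chromosome 2, 118111876 to 118127133, plus strand, and its exons overlap those of Gm29233 on the minus strand. Thbs2 (ENSMUSG00000023885) is at chromosome 17, 14665500 to 14694235, minus strand. Thbs3 (ENSMUSG00000028047) is at chromosome 3, 89215180 to 89226837, plus strand, and its exons overlap those of Mtx1 on the minus strand. Thbs4 (ENSMUSG00000021702) is at chromosome 13, 92751590 to 92794818, minus strand. Tnc (ENSMUSG00000028364) is at chromosome 4, 63959785 to 64047015, minus strand, and its exons overlap those of 8030451A03Rik on the plus strand. Tnxb (ENSMUSG00000033327) is at chromosome 17, 34670535 to 34719815, plus strand, beside the pseudogene Cyp21a2-ps, whose exons it overlaps. Postn (ENSMUSG00000027750) is at chromosome 3, 54361109 to 54391037, plus strand.

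In tendon and in the outer annulus, scleraxis (Scx) and Mohawk (Mkx) are transcription factors that keep fibroblasts in a state in which they build aligned type I collagen. Tenomodulin (Tnmd) is a membrane glycoprotein that marks mature tendon cells and depends on Scx. Thrombospondins, tenascins and periostin are matricellular proteins: they are secreted into the matrix and tune how cells attach to it and how collagen fibrils assemble.

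Levels of Thbs4, Thbs2, Tnmd, Mkx and Thbs3, after each group's mean was taken off, were correlated across AF libraries. Pearson's r was between 0.66 (Tnmd with Thbs3) and 0.96 (Thbs2 with Thbs4). Others of the 10 genes were as close to some of these, such as Postn to Thbs3 (0.87) and Thbs1 to Mkx (0.84). The sequences just upstream of the starts of Thbs4, Thbs2 and Tnmd are shown as examples, from RefSeq on GRCm38.p6. Scx belongs to the basic helix-loop-helix factors, which bind the E-box CANNTG, a motif that reads the same on both strands. Capitals mark each match to CANNTG. The windows are chr13:92794819-92795068 (minus strand) for Thbs4, chr17:14694263-14694512 (minus strand) for Thbs2 and chrX:133850758-133850979 (plus strand) for Tnmd, each written 5′ to 3′ on the strand of the gene.
Thbs4: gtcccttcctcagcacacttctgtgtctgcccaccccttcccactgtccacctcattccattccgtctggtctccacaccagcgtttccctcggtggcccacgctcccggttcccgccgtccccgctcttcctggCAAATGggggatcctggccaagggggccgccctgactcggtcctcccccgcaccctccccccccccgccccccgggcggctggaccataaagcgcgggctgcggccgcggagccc
Thbs2: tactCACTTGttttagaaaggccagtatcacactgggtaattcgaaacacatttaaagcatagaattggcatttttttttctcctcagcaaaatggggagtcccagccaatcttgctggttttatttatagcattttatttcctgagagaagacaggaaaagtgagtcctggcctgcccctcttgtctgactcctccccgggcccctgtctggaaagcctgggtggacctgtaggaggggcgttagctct
Tnmd: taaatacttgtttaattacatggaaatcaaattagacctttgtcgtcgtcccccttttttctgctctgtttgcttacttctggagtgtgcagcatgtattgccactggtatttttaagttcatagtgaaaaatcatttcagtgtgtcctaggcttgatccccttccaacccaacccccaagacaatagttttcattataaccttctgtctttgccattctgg
Thbs4 and Thbs2 each had 1 match, and no CANNTG is in the 222 bases shown for Tnmd. The RefSeq table held 7 of the 10 genes with 9 windows of 250 bases, of which 6 windows, from 5 genes, held at least 1 CANNTG. Among all 32851 windows of that length, 66.2% held it.

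In vehicle-treated mice, 9 of the 10 genes were lower in NP than in AF and 1, Tnxb, was higher. All 10 differences passed the test. Among all genes tested 33.9% were called lower in NP and 21.8% higher. The median difference of the 10 genes was -3.68 on the log2 scale, against -0.08 over all genes tested. The libraries of both tissues did not overlap for 8 of the 10 genes, all of them lower in NP, a pattern met by 25.9% of all genes tested. Under MDL-800 the libraries did not overlap for 7 genes. Of these 7, Tnxb was higher in NP and the others were lower. Among all genes tested, 30.5% did not overlap and were lower in NP. The share that did not overlap and was higher in NP was not computed. Under MDL-800, 8 genes were called lower in NP and Tnxb higher (background 37.2% lower and 25.6% higher), with a median difference of -3.77. The genes were picked as annulus and tendon genes with earlier results of these data known, so their direction is a description of known annulus genes and not independent evidence.

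**Figure D1:**
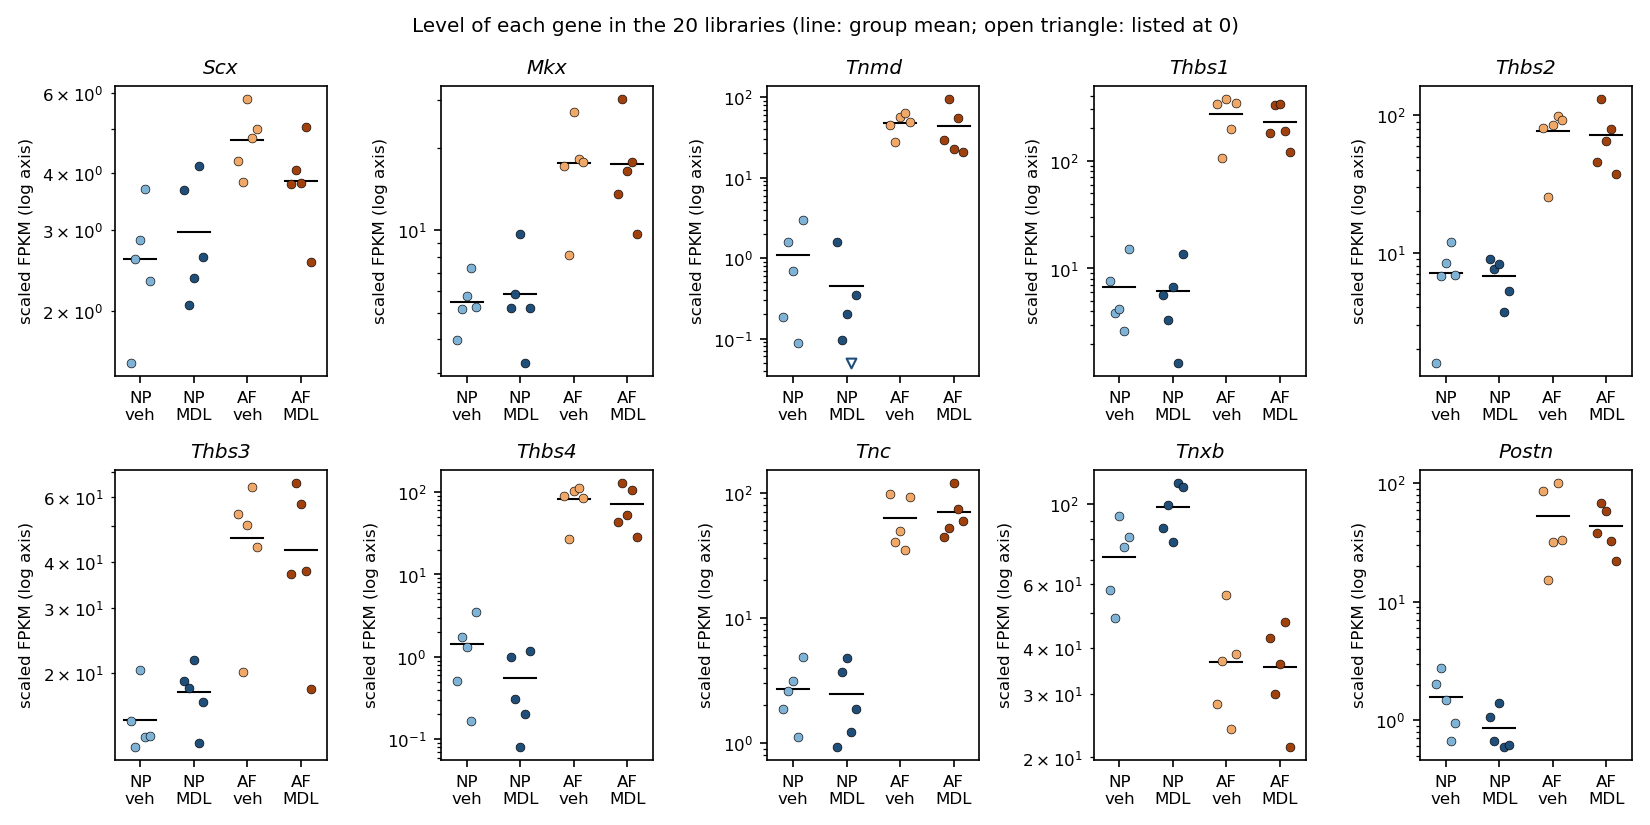
Level of each of the 10 genes in every library (scaled FPKM on a log axis), with points for the 5 libraries of each group, a line at the group mean and an open triangle for Tnmd in NP MDL-800 library 20, which is listed at 0. AF libraries lie above NP libraries for most genes, Tnxb shows the opposite order, and the vehicle and MDL-800 points of a tissue overlap in every panel.

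Of the transcription factors, Scx had the lowest mean level of the 10 genes in AF and differed least between tissues. Scx was at 1.54, 2.60, 2.86, 3.69 and 2.33 in NP vehicle and at 4.26, 3.82, 5.81, 4.79 and 4.99 in AF vehicle. Every AF library was above every NP library, but the lowest AF value (3.82) was close to the highest NP value (3.69). The means were 2.60 ± 0.785 and 4.74 ± 0.757 (SD, n = 5), 1.82-fold higher in AF, a log2 difference (NP minus AF) of -0.69 (SE 0.17; limma adjusted p = 0.00538). With MDL-800, the NP libraries had Scx levels of 3.68, 2.06, 2.36, 4.14 and 2.63 and the AF libraries 3.79, 4.07, 3.80, 5.06 and 2.56. Here the tissues overlapped, and the difference of -0.30 (95% interval -0.70 to 0.10; limma adjusted p = 0.176) was not called. With quantile normalization, which moved the median of all genes by 0.29, the Scx difference was -0.19 (limma adjusted p = 0.362) in vehicle and 0.21 (limma adjusted p = 0.333) under MDL-800, so that its call and its direction depend on scaling. Bop1, the host gene on the other strand, averaged 7.36 ± 1.58 in NP vehicle and 11.7 ± 2.68 in AF vehicle (SD, n = 5). The strand setting of the authors' counting is not given in the sources used here, and the part of Bop1 reads in the Scx values was not tested.

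Mkx was more abundant than Scx in every group. Its level was 3.98, 5.15, 5.75, 7.27 and 5.25 in NP vehicle and 17.1, 8.14, 27.0, 18.2 and 17.8 in AF vehicle. The tissues did not overlap, though AF library 9 came close to the NP range. The means of 5.48 ± 1.19 and 17.7 ± 6.68 (SD, n = 5) gave a log2 difference of -1.46 (SE 0.26; limma adjusted p = 0.000712). Under MDL-800 the NP levels of Mkx were 5.20, 5.84, 9.71, 3.28 and 5.21, and the AF levels 13.6, 30.1, 16.4, 17.7 and 9.67. NP library 19 lay just above AF library 30, and the difference was -1.41 (SE 0.29; limma adjusted p = 0.00166).

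Tnmd was near the limit of detection in NP and well expressed in AF. In NP vehicle it was at 0.183, 1.59, 0.701, 0.0891 and 2.98, and in NP MDL-800 at 1.58, 0.095, 0.203, 0 and 0.351. From the estimated depth, these values stand for 4.0, 27.9, 17.9, 2.1 and 65.8 reads in the vehicle libraries and 36.9, 1.9, 3.0, 0 and 7.9 reads in the MDL-800 libraries, so that the order of the lowest libraries rests on a few reads. In AF vehicle the level was 44.8, 27.7, 57.4, 63.4 and 48.6, and in AF MDL-800 29.7, 94.5, 22.6, 54.6 and 20.8. The lowest AF library was far above the highest NP library in both treatments. The AF mean was 43.6-fold the NP mean in vehicle (48.4 ± 13.7 and 1.11 ± 1.21, SD, n = 5), a log2 difference of -4.67 (SE 0.36; limma adjusted p = 6.46e-06). Under MDL-800 the AF mean was 99.8-fold the NP mean, and the difference was -4.82 (SE 0.42; limma adjusted p = 4.88e-06). The log2(scaled FPKM + 1) scale understates the change of a gene this low, and with a pseudocount of 0.1 the difference was larger in both treatments (-5.98 and -6.79).

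Thbs1 encodes a trimeric thrombospondin that is stored in platelets, binds CD36 and CD47 and can activate latent TGF-beta. It had the highest mean level of the 10 genes in AF. Thbs1 was at 7.64, 3.83, 4.23, 2.65 and 15.3 in NP vehicle and at 335.5, 105.2, 373.2, 198.9 and 344.9 in AF vehicle. No NP library came near the AF range. The means were 6.72 ± 5.12 and 271.5 ± 114.8 (SD, n = 5), 40.4-fold higher in AF, with a log2 difference of -5.22 (SE 0.45; limma adjusted p = 1e-05). Under MDL-800 the NP libraries had 5.71, 3.29, 6.72, 1.33 and 13.7 and the AF libraries 179.3, 329.0, 339.6, 188.8 and 120.9, a difference of -5.17 (SE 0.46; limma adjusted p = 5.81e-06). Within NP, Thbs1 was highest in vehicle libraries 6 and 1 and MDL-800 library 22, at 15.3, 7.64 and 13.7. Those 3 libraries also had the highest summed level of 5 platelet markers in NP, at 133.4, 97.1 and 51.0, against 9.57 to 39.2 in the other NP libraries. All 5 platelet markers were above 0 in each group, and in AF their sum was between 367.9 and 854.1. In AF vehicle library 9 the platelet sum was the highest of all and Thbs1 the lowest in AF. The part of platelets in the Thbs1 level was not tested.

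Thbs2, the other trimeric member, is a regulator of collagen fibril assembly. It was at 1.58, 6.78, 8.48, 11.9 and 6.91 in NP vehicle and at 80.7, 25.3, 84.9, 99.0 and 92.2 in AF vehicle. NP library 1 was low in NP and AF library 9 low in AF, and the tissues did not overlap. The means of 7.13 ± 3.73 and 76.4 ± 29.4 (SD, n = 5) differed by -3.29 on the log2 scale (SE 0.46; limma adjusted p = 0.000164). With MDL-800 its NP levels were 8.96, 7.58, 8.27, 3.68 and 5.28 and its AF levels 45.5, 131.1, 65.5, 79.2 and 37.6, a difference of -3.15 (SE 0.33; limma adjusted p = 1.6e-05).

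Thbs3 and Thbs4 belong to the pentameric thrombospondins, with Comp, the cartilage oligomeric matrix protein. Thbs3 had the highest mean level of Thbs1 to Thbs4 in both NP groups, although Thbs1 was above it in NP vehicle library 6. It was at 14.8, 12.6, 20.3, 13.4 and 13.5 in NP vehicle and at 53.7, 20.1, 50.3, 63.8 and 43.7 in AF vehicle. NP library 3 was just above AF library 9, so the tissues overlapped by those libraries. The mean level was 14.9 ± 3.09 in NP and 46.3 ± 16.4 in AF (SD, n = 5), 3.11-fold higher in AF, a log2 difference of -1.50 (SE 0.27; limma adjusted p = 0.000793). The NP MDL-800 libraries had Thbs3 levels of 19.0, 18.2, 21.7, 12.9 and 16.7 and the AF MDL-800 libraries 37.0, 65.2, 57.2, 37.7 and 18.1. AF library 30 lay within the NP range, and the difference was -1.13 (SE 0.30; limma adjusted p = 0.00634). Mtx1, which shares exon bases with Thbs3 on the other strand, averaged 25.9 ± 5.00 in NP vehicle and 33.5 ± 2.97 in AF vehicle (SD, n = 5), and its part in the Thbs3 values was not tested.

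Thbs4 is enriched in tendon and at its attachment to muscle. It was at 0.506, 1.72, 1.33, 0.168 and 3.47 in NP vehicle and at 88.5, 26.8, 103.2, 112.9 and 85.2 in AF vehicle. In NP MDL-800 it was at 1.01, 0.306, 0.081, 0.202 and 1.19, and in AF MDL-800 at 43.8, 128.1, 52.0, 104.7 and 28.1. Every AF library was above every NP library. The AF mean was 57.9-fold the NP mean in vehicle, with a log2 difference of -5.12 (SE 0.44; limma adjusted p = 1e-05), and 128.0-fold under MDL-800, with a difference of -5.38 (SE 0.39; limma adjusted p = 2.18e-06). The highest NP libraries for Thbs4, vehicle 6 and vehicle 2, were also among the 3 highest for Tnmd.

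**Figure D2:**
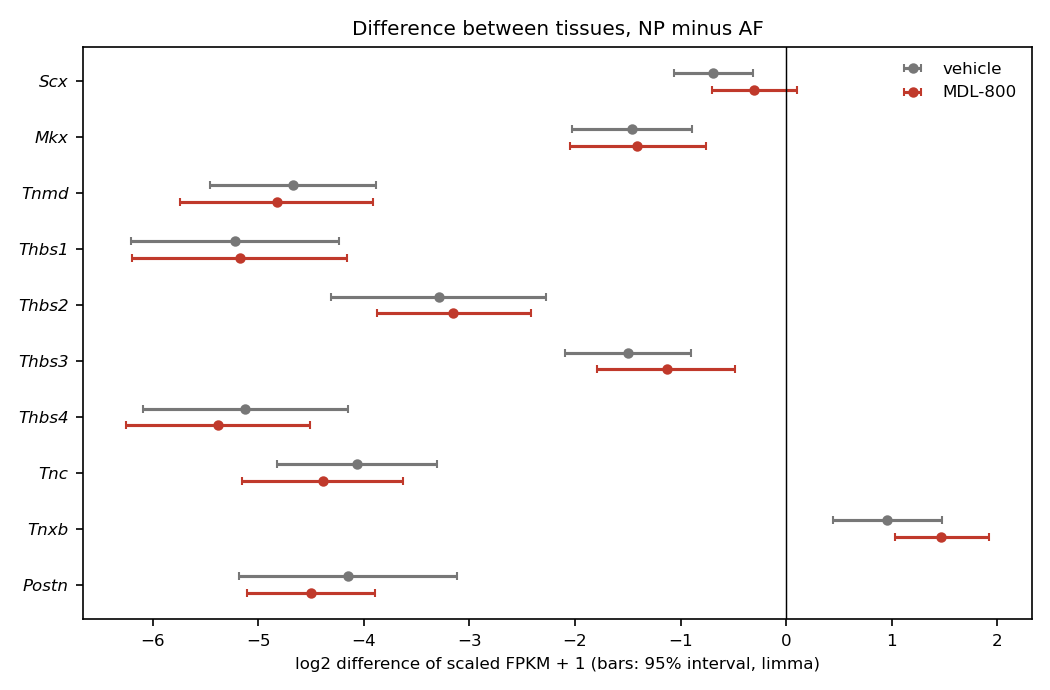
Difference between tissues for each gene, NP minus AF, on the log2(scaled FPKM + 1) scale, in vehicle (grey) and MDL-800 (red) groups of 5 libraries, with the estimate as a point and the 95% interval from limma as a bar. Tnxb is the gene to the right of 0, and the interval of Scx under MDL-800 crosses 0.

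The make-up of the thrombospondin family differed between tissues. Thbs3 made up 38.5 ± 10.9% (SD, n = 5) of the summed level of Thbs1 to Thbs4 and Comp in NP vehicle, against 4.15 ± 2.02% in AF vehicle. The lowest NP share was 22.9% and the highest AF share 7.66%, so these groups did not overlap. Comp took 24.4 ± 11.6% of the sum in NP vehicle and 59.7 ± 11.3% in AF vehicle (SD, n = 5). Thbs1 took 15.7 ± 8.82% in NP vehicle and 22.2 ± 4.08% in AF vehicle, and these ranges overlapped. The family sum itself was 40.9 ± 11.7 in NP vehicle and 1250.6 ± 602.4 in AF vehicle (SD, n = 5). Under MDL-800 the Thbs3 share was 41.6 ± 13.4% in NP and 3.68 ± 0.645% in AF, with Comp at 30.1 ± 11.7% and 64.0 ± 5.56%. FPKM is a value per length of transcript, which allows these levels to be compared between genes only roughly. The annotation behind the lengths is not given, and the part of Mtx1 reads in the Thbs3 share was not tested.

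**Figure D3:**
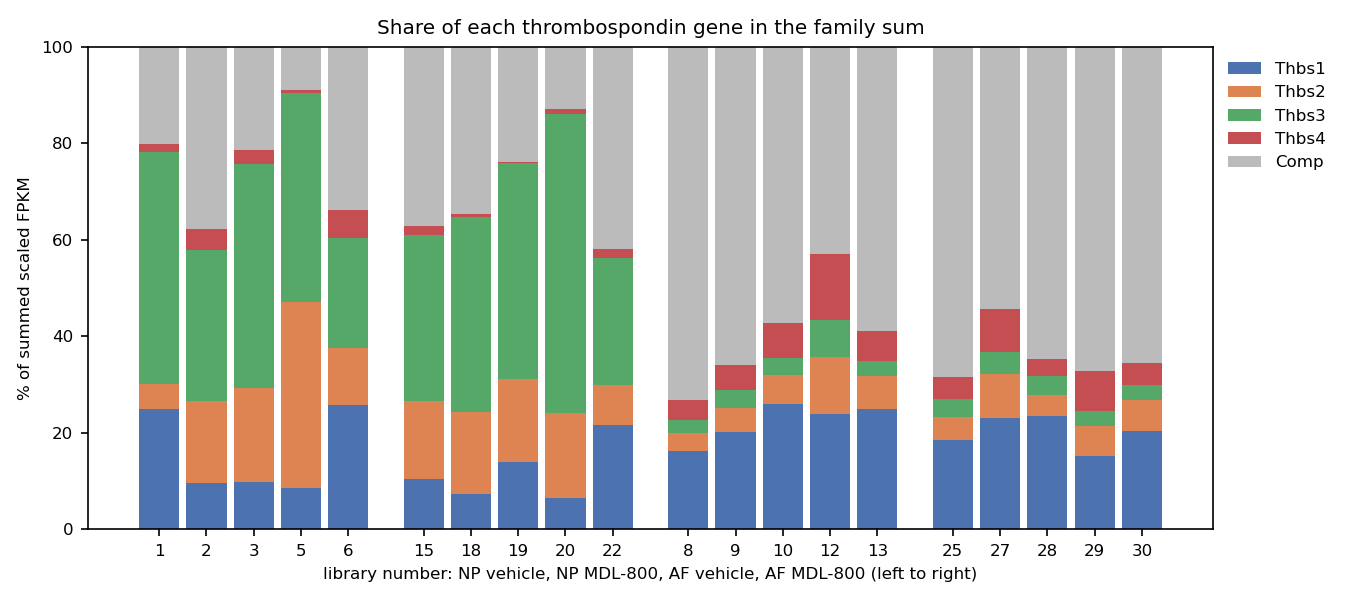
Percentage of the summed scaled FPKM of Thbs1, Thbs2, Thbs3, Thbs4 and Comp taken by each gene, with a bar for each of the 20 libraries in 4 blocks. Thbs3 takes between 22.9% and 62.0% of the sum in NP libraries and at most 7.66% in AF libraries, where Comp takes the largest share.

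The tenascins went in opposite directions. Tnc encodes tenascin-C, a hexameric protein of developing, loaded and injured connective tissue. It was at 1.86, 2.58, 3.10, 1.12 and 4.86 in NP vehicle and at 97.2, 40.2, 49.1, 35.0 and 91.8 in AF vehicle. The tissues did not overlap, and the means of 2.70 ± 1.42 and 62.7 ± 29.6 (SD, n = 5) differed by -4.06 on the log2 scale (SE 0.34; limma adjusted p = 9.36e-06). With MDL-800 the NP levels were 0.929, 3.66, 4.73, 1.22 and 1.85 and the AF levels 44.5, 52.6, 119.3, 74.6 and 59.0, a difference of -4.39 (SE 0.34; limma adjusted p = 2.88e-06).

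Tnxb encodes tenascin-X, which binds fibrillar collagen and whose loss causes a form of Ehlers-Danlos syndrome with lax skin and joints. It had the highest mean level of the 10 genes in NP. Its level was 58.0, 48.4, 92.6, 76.3 and 81.0 in NP vehicle and 28.0, 36.8, 56.0, 24.0 and 38.7 in AF vehicle. Only AF library 10 reached the NP range. The means were 71.3 ± 17.9 and 36.7 ± 12.4 (SD, n = 5), 1.94-fold higher in NP, a log2 difference of 0.96 (SE 0.24; limma adjusted p = 0.00533). The NP MDL-800 libraries had Tnxb levels of 85.8, 99.1, 78.6, 114.1 and 111.3, and the AF MDL-800 libraries 42.7, 29.9, 36.1, 47.3 and 21.4. These groups did not overlap, and the difference was 1.47 (SE 0.20; limma adjusted p = 9.6e-05). Tnxb was called higher in NP under each of the 22 alternatives of processing tried in each treatment, with differences between 0.83 and 1.12 in vehicle and between 1.19 and 1.77 under MDL-800. The overlapping pseudogene Cyp21a2-ps was at or below 0.163 in every library.

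The share of Tnxb in the sum of Tnc and Tnxb, which leaves out Tnn, was 96.3 ± 1.68% in NP vehicle and 38.7 ± 12.7% in AF vehicle (SD, n = 5). The sums themselves were 74.0 ± 18.4 and 99.4 ± 30.8, with overlapping ranges. Under MDL-800 the share was 97.4 ± 2.00% in NP and 34.8 ± 10.2% in AF (SD, n = 5).

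Postn encodes periostin, a fasciclin-domain protein of periosteum, ligament and loaded connective tissue. It was at 2.03, 2.74, 1.48, 0.673 and 0.942 in NP vehicle and at 87.1, 15.2, 31.7, 100.5 and 33.0 in AF vehicle. AF levels of Postn spread more widely than those of any other of the 10 genes in that group, 6.63-fold from lowest to highest, yet all were above NP. The log2 difference was -4.15 (SE 0.47; limma adjusted p = 4.44e-05). With MDL-800, NP levels were 1.06, 0.665, 1.39, 0.595 and 0.620 and AF levels 38.4, 68.7, 58.3, 32.9 and 22.1, a difference of -4.50 (SE 0.28; limma adjusted p = 1.14e-06).

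Over both treatments, the mean NP level as a share of the mean AF level was 1.29% for Thbs4, 1.68% for Tnmd, 2.50% for Postn, 2.56% for Thbs1 and 3.91% for Tnc. It was 9.37% for Thbs2, 32.2% for Mkx, 36.5% for Thbs3 and 64.9% for Scx. For comparison, the summed markers gave 2.99% for fat, 3.66% for bone, 4.69% for endothelium, 5.40% for loose connective tissue, 5.93% for skeletal muscle and 18.3% for the annulus. The shares of Thbs4, Tnmd, Postn and Thbs1 were thus below those of each of these marker sums. The annulus sum holds Fmod, which was not called between tissues and made up most of that sum in NP. In NP vehicle the median was 841.2 for Fmod and 1023.9 for the sum, against 733.2 and 5647.1 in AF vehicle. The annulus share without Fmod was not computed, so the order against the other annulus markers is not given. How much of the NP level of these genes came from adhering AF or neighbouring tissue was not tested. In the other direction, the AF libraries held the NP marker T (brachyury) at 305.0 ± 200.6 in vehicle, against 1403.7 ± 251.6 in NP vehicle (SD, n = 5).

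Genes related to the 10 were given by 4 lists. As background, 21.8% of all genes tested were called higher in NP of vehicle-treated mice and 33.9% lower. Of the relatives of these families, 4 of 6 were tested, and all 4 were lower in NP of vehicle-treated mice. Comp averaged 10.7 ± 6.91 in NP against 773.0 ± 481.4 in AF (SD, n = 5; log2 difference -6.07, SE 0.52, limma adjusted p = 1e-05), and Cnmd, the gene of chondromodulin and a homologue of Tnmd, differed by -4.33 (SE 0.71; limma adjusted p = 0.000441). Of 12 regulators of tendon and ligament that were tested, 3 were higher in NP and 7 lower, the higher count being near the background share. The growth factor genes Gdf6 and Gdf5 were lower (-2.98, SE 0.18, and -2.88, SE 0.35), whereas Tgfb2, a ligand that induces Scx in the embryo, and Sox9, a transcription factor of cartilage, were higher (1.76, SE 0.28, and 1.36, SE 0.21). The limma adjusted p was at most 0.000375 for these 4 genes.

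Among 17 genes of fibrillar matrix, 13 were lower in NP and 4 were not called, namely Fmod, Prelp, Col5a1 and Col6a1. The largest differences were those of Dcn, the gene of decorin, at -6.57 (SE 0.65; limma adjusted p = 2.19e-05) and Chad, the gene of chondroadherin, at -6.19 (SE 0.60; limma adjusted p = 1.88e-05). Of 13 tested receptors and partners of thrombospondins, tenascins and periostin, 3 were higher in NP and 8 lower. The background was 21.8% higher and 33.9% lower, so the higher count was near that of all genes. The integrin subunit gene Itgb3 and the syndecan gene Sdc1 were lower (-3.06, SE 0.39, and -3.07, SE 0.27; limma adjusted p at most 8.56e-05). Sdc4 and Lrp1, which encodes an endocytic receptor for thrombospondins, were higher (0.69, SE 0.16, and 0.62, SE 0.15; limma adjusted p at most 0.00552). The thrombospondin receptor genes Cd47 and Cd36 were lower in NP, with log2 differences of -1.03 and -0.92 (limma adjusted p = 1.08e-05 and 0.0165). Median differences of the 4 lists, in the order given, were -4.14, -0.70, -4.38 and -0.71, against -0.08 over all genes tested. Under MDL-800 the counts of genes higher and lower in NP were 0 and 4, 2 and 6, 0 and 13, and 3 and 8. Among all genes tested, 25.6% were higher and 37.2% lower there. Under the other scalings no list changed by more than 2 genes in either direction.

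Neither treatment comparison called any of the 10 genes. In NP the background was 0.25% of genes called, and in AF 0.0%. The smallest adjusted p among the 10 genes was that of Tnxb in NP, with a mean of 71.3 ± 17.9 in vehicle against 97.8 ± 15.6 with MDL-800 (SD, n = 5), 1.37-fold apart. Tnxb was above the vehicle median (76.3) in all 5 MDL-800 libraries, and the groups overlapped. Its log2 difference (MDL-800 minus vehicle) was 0.47 (SE 0.18; 95% interval 0.08 to 0.87; limma adjusted p = 0.256). Tnxb was the 1 gene of the 10 among the 2311 with an unadjusted p under 0.05 in NP. The lowest Tnxb levels were in vehicle libraries 1 and 2. With the trend of each library on gene GC content removed, the difference was 0.25 (limma adjusted p = 0.487). That trend was between -0.29 and -0.01 log2 units per 10 percentage points of GC in NP vehicle libraries. In NP MDL-800 libraries it was between 0.02 and 0.09. The longest annotated Tnxb transcript holds 60.7% GC. The part of these trends in the Tnxb difference was not tested.

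The remaining NP estimates had wide intervals. Postn averaged 1.57 ± 0.836 with vehicle against 0.865 ± 0.348 with MDL-800 (SD, n = 5), a difference of -0.42 (95% interval -0.91 to 0.06; limma adjusted p = 0.427). Thbs4 had a difference of -0.55 (-1.32 to 0.23; limma adjusted p = 0.521) and Tnmd of -0.46 (-1.30 to 0.37; limma adjusted p = 0.638). These 3 are low in NP, and vehicle library 6 was the highest of all NP libraries for Tnmd and Thbs4. Thbs1 (-0.15), Thbs2 (0.05), Thbs3 (0.23), Tnc (-0.13), Scx (0.14) and Mkx (0.04) had intervals that covered 0, with limma adjusted p between 0.531 and 0.972.

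In AF the differences ran from -0.31 for Tnmd to 0.19 for Tnc, and each limma adjusted p was 1.0. The intervals were wide here as well: from -1.20 to 0.58 for Tnmd, from -1.35 to 0.78 for Thbs4, and from -1.18 to 1.05 for Postn. The narrowest was that of Scx, from -0.59 to 0.09 around -0.25. In AF 270 genes had an unadjusted p under 0.05, none of them among the 10. The MDL-800 effect was also compared between the tissues, where 0 of 10 genes and 0.0% of all genes were called by limma, and 610 genes had an unadjusted p under 0.05. Among the 10 the difference of effects was largest for Tnxb, at 0.51 (95% interval -0.17 to 1.20; limma adjusted p = 1.0). None of the related genes in the 4 lists was called in either tissue or in the difference of effects.

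**Figure D4:**
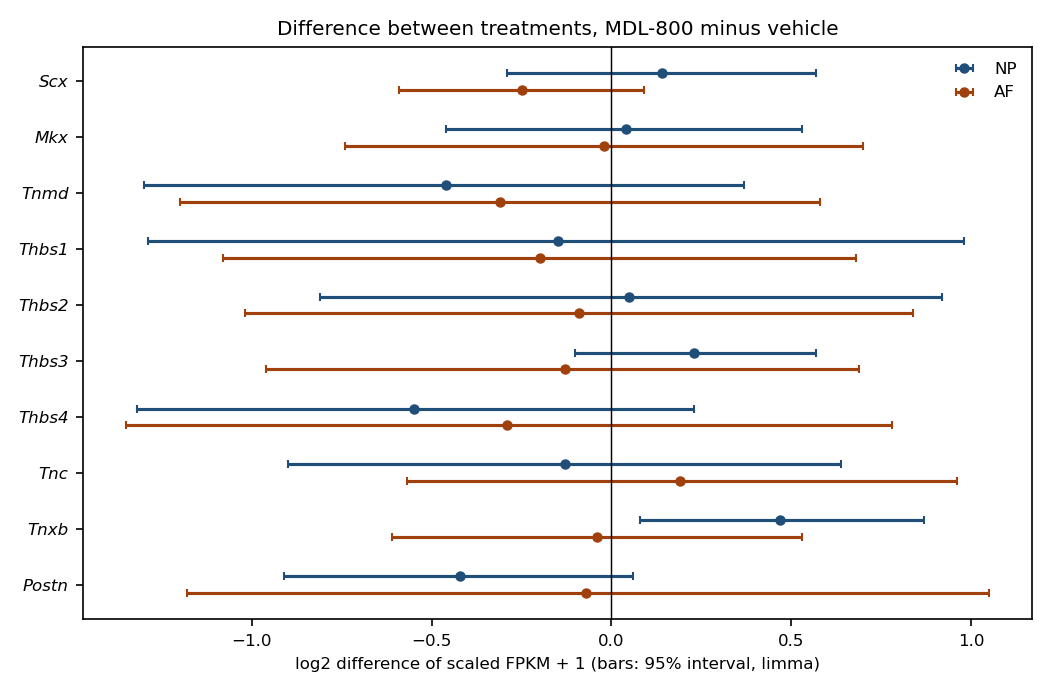
Difference between treatments for each gene, MDL-800 minus vehicle, on the log2(scaled FPKM + 1) scale, in NP (blue) and AF (brown) with 5 libraries in each group, with the estimate as a point and the 95% interval from limma as a bar. All intervals cover 0 except that of Tnxb in NP, which begins at 0.08 and whose adjusted p was 0.256.

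For each gene the order of the 4 group means followed the tissue. Both AF groups were above both NP groups for the 9 genes other than Tnxb, and both NP groups above both AF groups for Tnxb. Within each tissue the neighbouring groups overlapped. By mean level, the order of the genes in NP began with Tnxb, Thbs3, Thbs2 and Thbs1 in both treatments and ended with Postn, Thbs4 and Tnmd. In AF it began with Thbs1 and ended with Tnxb, Mkx and Scx.

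Variation among AF libraries was shared by most of these genes. AF vehicle library 9 had the lowest level of its group for 8 of the 10 genes, all but Tnc and Tnxb. AF MDL-800 library 30 was the lowest of its group for 9, all but Tnc, and AF MDL-800 library 27 the highest for 6. The sum of 5 AF markers, which hold none of the 10 genes, was the lowest of its group in library 9 (3025.6) and library 30 (4678.1) and the highest of its group in library 27 (8058.9). Library 9 was also the AF library with the highest sum of NP markers, which in library 30 was 7386.5, within the range of the other AF libraries. Bone and red blood cell marker sums were 2013 and 2943 in library 30. In library 29, the lowest of its group for 0 of the 10 genes, they were 2073 and 607. The part of tissue make-up in the low levels was not tested. Without library 9, the tissue difference in vehicle was -3.64 for Thbs2, -5.48 for Thbs4, -1.70 for Mkx and -1.77 for Thbs3.

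Correlations of log2 levels over the 10 AF libraries, after each group's mean was taken off, describe the same pattern. Pearson's r was 0.96 for Thbs2 with Thbs4, 0.93 for Mkx with Thbs2, 0.92 for Mkx with Thbs4, 0.90 for Tnmd with Thbs4 and 0.84 for Tnmd with Thbs2. It was 0.87 for Thbs3 with Postn, 0.84 for Mkx with Thbs1, 0.79 for Scx with Thbs4 and 0.66 for Tnmd with Thbs3. Tnc and Tnxb stood apart. For Tnc, r was between -0.18 and 0.24 to every other gene except Thbs1 (0.57), and for Tnxb between -0.34 and 0.28 to every other gene except Scx (0.71). Over the 10 NP libraries, Tnmd and Thbs4 still had an r of 0.89, whereas Mkx and Thbs4 had -0.22 and Thbs2 and Thbs4 0.09. Tnxb and Postn had an r of -0.81 in NP and -0.34 in AF. Genes measured in 1 library share its depth and tissue make-up, and these values carry no test.

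**Figure D5:**
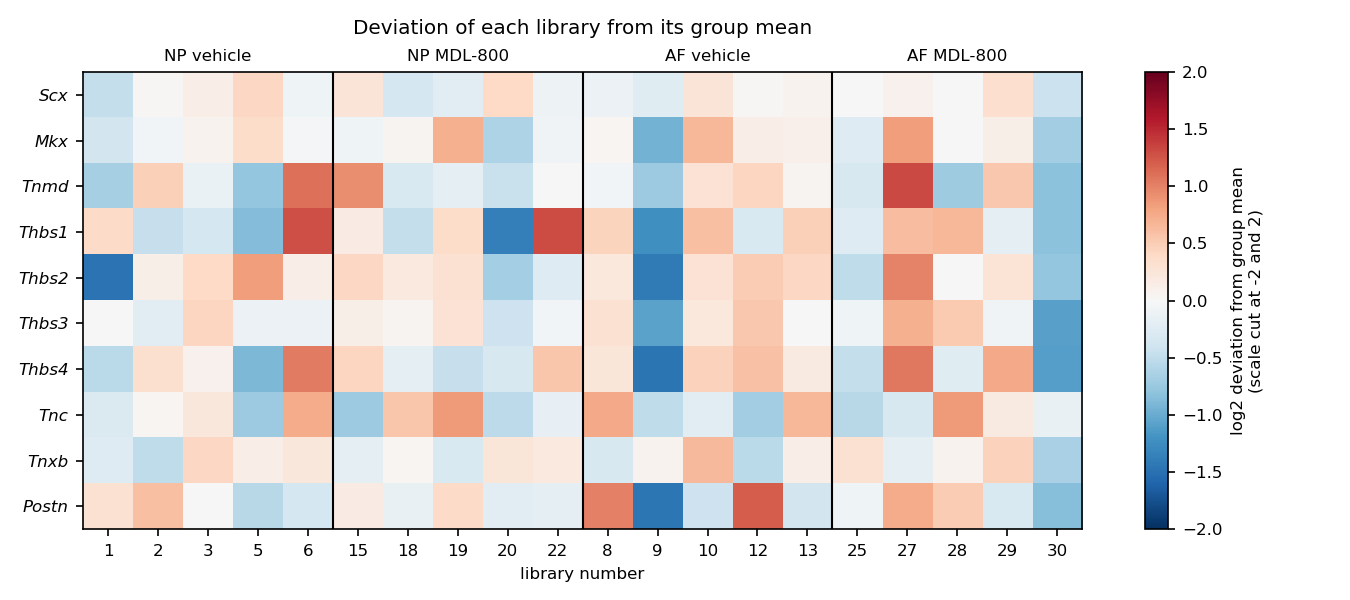
Deviation of each library from its group mean on the log2(scaled FPKM + 1) scale, with the 10 genes in rows, the 20 libraries in columns, red for above and blue for below the mean. The columns of AF libraries 9 and 30 are blue for most genes and that of AF library 27 is red for most, with Tnc and Tnxb below their group means in it.

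Over all 20 libraries, and among 11981 genes compared, from which the 10 themselves were left out, the genes whose deviations were most like those of each of the 10 were as follows. Mkx was most like Il1r1 (r = 0.94) and Pam (0.89), Thbs4 like Meox2 (0.92) and Hoxc10 (0.87), Thbs2 like Lpar1 and Igfbp5 (both 0.92), and Thbs1 like Sod3 (0.92) and Pcsk6 (0.89). Tnmd, whose r with Thbs4 was 0.89 over the same libraries, was most like Angptl7 (0.82) and Mrps12 (0.79), and Scx like Gnb4 (0.79) and Triap1 (0.77). Thbs3 was nearest to Acvr1 (0.91) and 2510009E07Rik (0.90), and Postn to Sdc2 (0.89) and Rnf185 (0.86). Tnc was nearest to Sp7 (0.87), the osteoblast transcription factor used here as a bone marker, and to Cdh11 (0.87), and Tnxb to Erbb2 (0.89) and Mtss1l (0.87). The highest of 11981 correlations over 20 libraries is high by selection, and these names are a description only.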

How the data were processed

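RNA was measured in 20 libraries, 5 in each of 4 groups, made per the labels' protocols from 50 ng of RNA with a stranded total RNA kit after depletion of ribosomal RNA and 14 cycles of PCR. The authors deposited a table of FPKM values for 51789 genes, rounded to 2 decimals. Reads were aligned with STAR 2.7.11b to mm10, per the submitters' processing notes. The counting program, annotation and strand setting are not given in the sources used here.

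Each library was scaled by its median ratio to a reference, the geometric mean of each of 11308 genes that reached 1 FPKM in all 20 libraries (factors 0.93 to 1.058). A gene was kept if it reached 1 FPKM in 5 or more libraries (16383). Groups were compared on log2(scaled FPKM + 1) with limma 3.58.1 in R 4.3.3 (eBayes with trend, two-sided, only the groups compared in the fit), and the difference of effects between tissues in a fit of all 4 groups. The code was checked on simulated data. Count models were not applied, because FPKM are normalized values. Depth was estimated from the steps that whole reads leave in low values of single-exon genes. Between 83.9% and 88.3% of those values lay within 0.25 of a whole read. Reads behind a level come from that estimate and cover no more than counting. All 20 columns were matched to samples by name, and 0 value columns were left over.

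The members and gene lists were chosen with earlier results of these data known. The rule for naming genes took all 10 members in each comparison, the 2 genes most like each member, the 2 largest called differences in each direction of each list in vehicle, and any list gene called for treatment. Cd47, Cd36, Tnn, single genes of the marker lists and the fibrillar matrix genes without a call were named after their values were seen. Alternatives were other scalings, pseudocounts, filters and variance models, library weights, removal of GC trends and leaving out libraries. GENCODE M21 gave coordinates and GC content (99.8% of tested genes), and RefSeq gave upstream sequences. Python 3.11.15 was used for summaries.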

Additional observations from a re-analysis of the deposited data

Results flagged for a closer look

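Each of the 10 genes was examined in each of the 4 groups for a library far from the other 4, which makes 40 sets of 5 values, on the log2(scaled FPKM + 1) scale. In 2 of them the lowest library's gap to its neighbour, relative to the group's range, was past Dixon's 95% limit for 5 samples. For independent sets, chance gives about 1 in 20. Both flags came from AF vehicle library 9, and Thbs2 and Thbs4 had an r of 0.96 in AF. The sets are therefore not independent, and their number cannot be read against that rate. In AF vehicle library 9 Thbs2 was at 25.3 scaled FPKM, against 80.7 to 99.0 in the other AF vehicle libraries. In the same library Thbs4 was at 26.8, against 85.2 to 112.9. On the scaled FPKM values without the log, a choice added after the data were seen, 3 sets passed the limit. They were Thbs2 in AF vehicle again, Tnmd in NP MDL-800 (library 15 high at 1.58) and Thbs3 in NP vehicle (library 3 high at 20.3), but not Thbs4.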

How the results depend on the processing

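Of the 10 genes, 10 remained called between tissues in vehicle and 9 under MDL-800 whichever library was left out, and 0 were called for treatment under any alternative. Exceptions among the tissue alternatives were quantile normalization, where Scx lost its call in vehicle (-0.192) and turned in MDL-800 (0.207), and the replicate block. Column names hold a second number, shared by an NP and an AF library in 5 vehicle pairs and 3 MDL-800 pairs. Deviations of same-numbered libraries correlated at -0.18 to 0.29 in vehicle and -0.18 to 0.17 in MDL-800. These correlations cannot tell whether such libraries share a mouse, because the tissue make-up of each library also enters them. The labels do not say what the number marks, and the main tests did not use it to pair libraries. With it as a replicate block, 8783 genes and 10 of the 10 members were called in vehicle, and 7858 genes and 8 members in MDL-800 (3 pairs, 6 libraries), where Thbs3 was at -1.242 (limma adjusted p = 0.0631). Quantile normalization also turned the balance of all genes to 6474 higher and 3923 lower in NP for vehicle and to 6919 and 4290 for MDL-800, from 3577 and 5550, and 4188 and 6102.

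The count of genes called for MDL-800 in NP, 41, was 18 without scaling, 70 with quantile normalization, 6 without a filter, 74 with the filter at 10 libraries, 18 without a variance trend and 4 with all 4 groups in the fit. It ran from 2 to 189 when 1 library was left out. In AF the count was 0 to 1 and for the difference of effects 0 to 1 over such omissions, and 1 with AF libraries 12, 27 and 30 left out. Treatment differences near 0 changed sign. In NP this held for Mkx (-0.063) and Thbs2 (-0.143) with library weights and Scx (-0.091) with GC trends removed. In AF it held for Mkx (0.014) and Postn (0.002) with GC trends removed, and for Postn (0.275), Thbs3 (0.127) and Tnxb (0.108) without those 3 libraries. For the difference of effects it held for Thbs1 with a pseudocount of 0.1 (-0.018) and, with library weights, Thbs2 (-0.003) and Tnmd (0.015). With 1 library left out, values in NP ran from -0.141 to 0.189 for Mkx, -0.479 to 0.187 for Thbs1, -0.318 to 0.262 for Thbs2 and -0.347 to 0.052 for Tnc. In AF they ran from -0.254 to 0.157 for Mkx, -0.427 to 0.236 for Postn, -0.501 to 0.010 for Thbs1, -0.443 to 0.106 for Thbs2, -0.401 to 0.137 for Thbs3, -0.017 to 0.382 for Tnc and -0.173 to 0.125 for Tnxb. The difference of effects ran from -0.123 to 0.290 for Mkx, -0.659 to 0.004 for Postn, -0.283 to 0.383 for Thbs1, -0.230 to 0.495 for Thbs2, -0.536 to 0.102 for Thbs4 and -0.382 to 0.178 for Tnmd. The cause was not tested for any of these changes. Depth limits Tnmd and Thbs4 in NP, where some libraries hold only a few reads.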
